A study of Rattus norvegicus with 2 samples.

Results

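The enzymes that make and break down heme were followed in the myocardium of spontaneously hypertensive rats, an inbred strain with high blood pressure and cardiac hypertrophy. The set held Alas1, Alas2, Alad, Uros, Urod, Cpox, Ppox and Fech of heme synthesis and Hmox1 of heme breakdown, chosen by gene symbol. All 9 were listed in both protein-coding tables, among 13706 genes listed in either. The KXH group received Jiangya Kangxian formula, a herbal preparation, at its high dose of 9.6 g/kg into the stomach, and the water group received distilled water. Both lasted 12 weeks. The stated interest of the study is cardiac remodelling and mitochondrial function. There was 1 library of total myocardial RNA per group, and the sources used here do not state age, sex, heart chamber or how many animals a library holds. No test between the treatments was therefore possible, "higher" and "lower" describe these 2 libraries, and the 95% intervals given are exact and cover counting error only.

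Heme is an iron-containing ring that carries oxygen in myoglobin and hemoglobin and electrons in the cytochromes of the respiratory chain. Its synthesis starts in the mitochondrion, where aminolevulinate synthase joins glycine to succinyl-CoA, passes through the cytosol, and ends in the mitochondrion, where ferrochelatase inserts iron. The first step has a pair of isoenzymes. Alas1 is made in all tissues and is repressed by heme, and the X-linked Alas2 is made in red cell precursors, where iron controls its translation. Heme oxygenases open the ring and release iron, carbon monoxide and biliverdin.

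The annotated starts of both first-step isoenzymes are shown because their ratios lay on opposite sides of 1. Each line runs 5′ to 3′ on the strand of the gene, from 250 bases before the start annotated by RefSeq in the GRCr8 assembly to 30 bases after it. The Alas1 window is chr8:115768613-115768892 on the minus strand, and the Alas2 window is chrX:22895200-22895479 on the plus strand. Capitals mark the motifs described next.
Alas1: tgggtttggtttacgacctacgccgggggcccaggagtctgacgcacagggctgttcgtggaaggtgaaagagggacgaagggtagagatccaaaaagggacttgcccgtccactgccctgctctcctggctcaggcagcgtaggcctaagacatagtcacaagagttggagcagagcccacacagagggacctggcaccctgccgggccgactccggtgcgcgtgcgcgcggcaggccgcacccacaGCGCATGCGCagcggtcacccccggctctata
Alas2: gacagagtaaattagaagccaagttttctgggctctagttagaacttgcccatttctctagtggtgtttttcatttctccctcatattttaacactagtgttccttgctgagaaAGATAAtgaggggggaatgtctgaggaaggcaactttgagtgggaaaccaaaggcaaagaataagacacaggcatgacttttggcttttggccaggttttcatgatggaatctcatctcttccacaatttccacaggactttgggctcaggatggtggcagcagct

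Both strands of the windows, with 50 bases after the start, were searched for the letters GCATGCGC (the core of the nuclear respiratory factor 1 site), AGATAA (bound by factors of the GATA family) and CCACACCC (erythroid Kruppel-like factor). The Alas1 window held GCATGCGC on both strands in overlapping matches across the annotated start, together from base -2 to base 8, and 2.47% of the 33469 RefSeq windows of 300 bases held it on either strand. No other motif overlapped it. The Alas2 window held AGATAA from base -136 to base -131, and 11.6% of windows held it on either strand. The Alas1 sequence shown was 64.3% G or C with 21 CG pairs, whereas the Alas2 sequence was 43.6% G or C with 0 CG pairs. Of all windows cut to this length, 6.34% held 0 CG pairs and 19.8% held 21 or more. Their medians were 51.4% G or C and 6 CG pairs. Windows were given for 7 of the 9 enzymes, and the only other match was AGATAA on the opposite strand of Fech, from base -135 to base -130. A match describes the letters only. The bases just before the annotated Alas2 start are ag, as at the end of an intron. The 50 bases after it hold 2 ATG triplets. This annotated start may therefore be an exon boundary inside the gene. The AGATAA match and the base composition of the Alas2 window may then describe an intron. They cannot be read against those of Alas1 as between 2 gene starts. Whether transcription begins at this base was not tested.

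Protein-coding reads totalled 14.1 M for KXH and 15.1 M for water (M, 1000000). Levels are RPKM, that is reads per kilobase of gene length and per 1000000 protein-coding reads. All 8 heart muscle markers examined were abundant, between 598 and 10080 RPKM in the KXH library and between 607 and 8890 RPKM in the water library. Their intervals lay above 1 for 5 and below 1 for 3, and their summed levels had a ratio of 1.08, beside the Alas1 ratio of 1.10 given next. The part of muscle content in the Alas1 value was not tested. Red cell markers summed to 2539 RPKM in the KXH library against 3727 RPKM in the water library, most of it the beta-globin Hbb, and their single values follow beside Alas2. All 7 endothelial markers had intervals below 1, at ratios from 0.816 (Flt1) to 0.937 (Vwf). Of the 10467 genes averaging 1 RPKM or more, 16.3% had such an interval. Each of these markers had at least 3014 reads in sum, so that small shifts lie outside counting error. In bulk tissue, fewer cells of a type and less RNA per cell cannot be told apart.

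Erythroid Alas2 was the one enzyme of the 9 with an RPKM ratio of KXH over water at or below 0.8, and 0 of the 9 reached the inverse of 0.8. Of the 10467 genes averaging 1 RPKM or more, 8.99% were at or below 0.8 and 5.32% at or above its inverse. Alas1, the isoenzyme of all tissues, was slightly higher in the KXH library, and the 6 later synthesis enzymes and Hmox1 were all slightly lower. Of the 10467 genes, 55% had a ratio below 1. The interval lay below 1 for 2 of the 9, Alas2 and Alad, against 16.3% of all genes, and above 1 for 1, Alas1, against 11.2%. With 1 RPKM added to each level, the log2 ratios of KXH over water had a median of -0.08 over the 9 enzymes and -0.02 over all genes. The shares past the fold or outside counting error and the medians are close to those of all genes. No enzyme other than Alas2 was more than 1.16-fold from the water level.

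**Figure D1:**
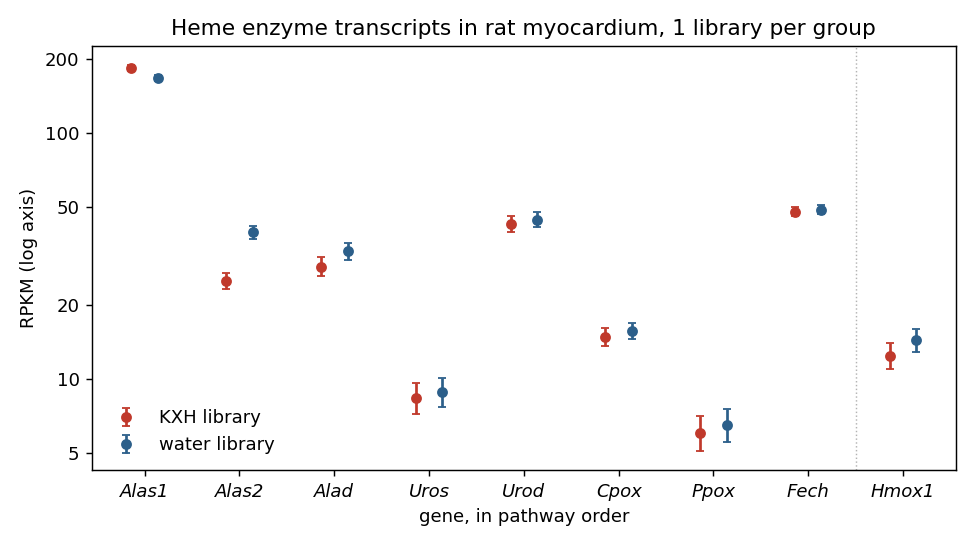
Level of each enzyme in RPKM (log axis) in the KXH library (red) and the water library (blue), 1 library each, with bars for 95% exact counting intervals and a dotted line between synthesis and breakdown. Alas1 was highest, at 183 RPKM in KXH and 167 RPKM in water, and Alas2 shows the widest gap of the 9, at 24.9 RPKM in KXH and 39.3 RPKM in water.

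Alas2, which supplies the first precursor of heme for hemoglobin in red cell precursors, had 662 reads in KXH and 1121 in water. Its level was 24.9 RPKM (95% interval 23.0 to 26.9) in KXH and 39.3 RPKM (37.0 to 41.6) in water. These intervals do not overlap, and the RPKM ratio of KXH over water was 0.634 (0.575 to 0.699). With its reads split by library size alone, the KXH library would have held 860 of them. Ranked from the lowest ratio, it was number 201 of the 10467 genes averaging 1 RPKM or more, and number 47 of the 8753 of these with at least 200 reads in sum.

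Alas1, the rate-limiting synthase outside the red cell lineage, had 5457 reads in KXH and 5342 in water. It stood at 183 RPKM (178 to 188) in KXH and 167 RPKM (163 to 172) in water, again without overlap of the intervals. Its ratio was 1.10 (1.06 to 1.14), higher than that of 81.1% of those 10467 genes. The isoenzymes thus lay on opposite sides of the water level, and by ratio Alas2 was farther from it. In RPKM the differences of KXH minus water were -14.4 for Alas2 and 16.2 for Alas1.

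The balance of the isoenzymes does not depend on library size or on gene length when their read ratio is compared between the libraries. The Alas2 to Alas1 read ratio in KXH was 0.578 times (0.521 to 0.642) that in water. Per length, Alas1 exceeded Alas2 by 7.36 times in the KXH library and 4.25 times in the water library. Alas2 made up 12.0% of the summed Alas1 and Alas2 RPKM in KXH and 19.0% in water. The ubiquitous isoenzyme was the more abundant one in both libraries.

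**Figure D2:**
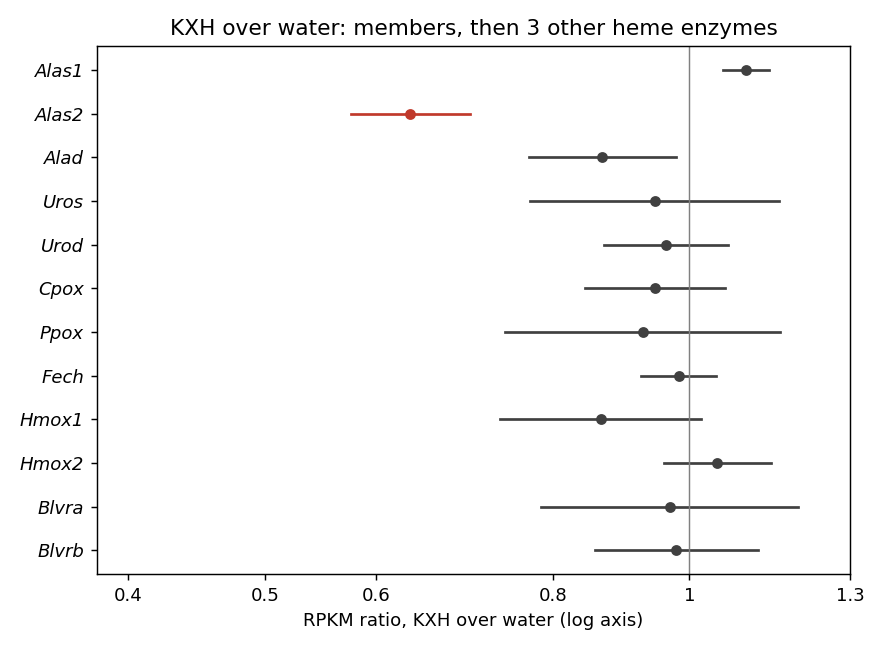
RPKM ratio of KXH over water (log axis) for the 9 enzymes and, below them, 3 further heme enzymes, with 95% exact counting intervals from 1 library per group and a vertical line at 1. Alas2 (red, 0.634) lies apart from the other rows, which span 0.865 to 1.10.

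Among the 6 later enzymes, that of the second step was the only one outside counting error. Alad, which condenses a pair of aminolevulinate molecules to porphobilinogen, had 496 reads in KXH and 614 in water. Its level was 28.5 RPKM in KXH and 32.9 RPKM in water, a ratio of 0.868 (0.769 to 0.978). Its interval included 1 at the 99% level. Alad has an erythroid promoter in mouse and human, and the tables do not separate its transcripts.

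The enzymes that close, trim and oxidise the ring had intervals that include 1. Uros, which closes the tetrapyrrole ring, was at 8.30 RPKM in KXH and 8.78 RPKM in water, from 184 and 209 reads, a ratio of 0.946 (0.771 to 1.16). Urod, which trims carboxyl groups from the side chains, was at 42.6 RPKM in KXH and 44.3 RPKM in water, from 729 and 814 reads, with a ratio of 0.962 (0.869 to 1.06). No difference was detectable for either at this depth, and the Uros interval spans the Alad ratio.

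Cpox and Ppox act at the mitochondrial membranes and carry out the oxidations before iron is inserted. Cpox was at 14.8 RPKM in KXH and 15.6 RPKM in water, from 572 and 650 reads, with a ratio of 0.945 (0.843 to 1.06). Ppox was the least abundant of the 9, at 5.99 RPKM in KXH and 6.46 RPKM in water. With 151 and 175 reads its ratio of 0.927 had the widest interval of the 9 relative to its size, 0.740 to 1.16.

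Fech, the ferrochelatase that inserts iron, was the most abundant later enzyme, at 47.7 RPKM in KXH and 48.5 RPKM in water, from 1987 and 2171 reads. Its ratio of 0.983 (0.925 to 1.05) was the closest to 1 of the 9. Of the 9, the enzymes of the first and the last step of synthesis thus had the highest levels in both libraries. Alas1 exceeded Fech by 3.84 times in KXH and 3.44 times in water.

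Alas2 was lower relative to each of the 6 later enzymes as well, which do not cover every later step of synthesis. Against their summed reads, the Alas2 read ratio in KXH was 0.664 times (0.597 to 0.739) that in water. Taken singly, the values against the 6 ran from 0.645 for Fech to 0.731 for Alad, and the interval lay below 1 for all of them. It also lay below 1 against Alas1 and against Hmox1, so for 8 of the 8 other enzymes. The read ratio of Alas1 to the 6 later enzymes was 1.15 times (1.09 to 1.22) that in water, and singly its interval lay above 1 against 6 of the 8 other enzymes and included 1 against Uros and Ppox. In all, 15 pairs with Alas1 or Alas2 were compared and their intervals were not adjusted for that number. The pairs share the reads of Alas2, which had the lowest ratio of the set, or of Alas1, which had the highest. Every Alas2 value thus had to lie below 1 and every Alas1 value above it, and the pairs are not separate results.

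The order of the levels was almost the same in both libraries. In the KXH library it ran Alas1, Fech, Urod, Alad, Alas2, Cpox, Hmox1, Uros and Ppox, and each of the 8 neighbouring pairs was apart beyond counting error. In the water library Alas2 stood above Alad, and 7 of the 8 pairs were apart. The pair that was not was Cpox and Hmox1, with a level ratio of 1.09 (0.958 to 1.252). Alas2 and Alad were the one pair of enzymes that changed places, with Alad 1.15 times (1.02 to 1.29) above Alas2 in KXH and Alas2 1.19 times (1.08 to 1.32) above Alad in water. Summed over the 9, the level was 368 RPKM in KXH and 377 RPKM in water. Without Alas2 it was 343 RPKM in KXH and 338 RPKM in water, and Alas1 alone made up 49.7% of the 9-gene sum in KXH and 44.3% in water.

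**Figure D3:**
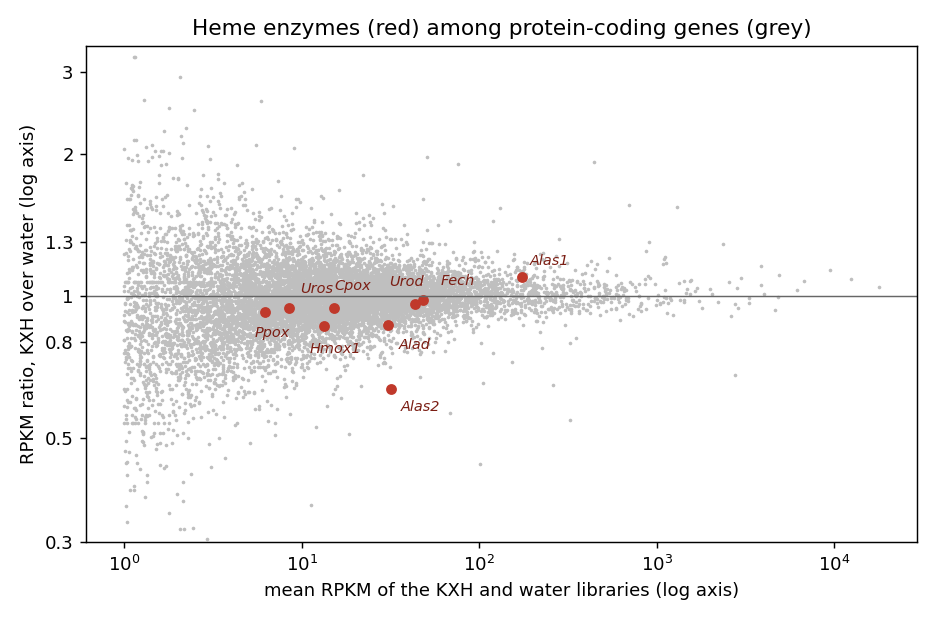
RPKM ratio of KXH over water against mean RPKM (both log axes) for the 10467 genes averaging 1 RPKM or more (grey), with the 9 heme enzymes in red, from 1 library per group. Alas2 at 0.634 lies at the lower edge of genes of its level and the other 8 lie within the grey band; 9 genes fall outside the plotted ratios of 0.3 to 3.4 and 1 gene with 0 reads in a library is not drawn.

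On the breakdown side, Hmox1, the inducible heme oxygenase of stressed cells and of macrophages that take up red cells, had 269 reads in KXH and 334 in water. It stood at 12.4 RPKM in KXH and 14.3 RPKM in water, a ratio of 0.865 (0.734 to 1.02). The constitutive heme oxygenase Hmox2 was at 38.7 RPKM in KXH and 37.0 RPKM in water, with a ratio of 1.05 (0.959 to 1.14). Both single intervals include 1, while the Hmox1 to Hmox2 read ratio in KXH was 0.826 times (0.685 to 0.996) that in water. A row named Hmox2-ps1, a pseudogene in RefSeq, had a ratio of 0.909 (0.879 to 0.939). With its reads added to those of Hmox2, a sum chosen after seeing the data, the Hmox1 value was 0.935 (0.791 to 1.10), an interval that includes 1. How reads were divided between these copies was not tested. Against the summed reads of the 8 synthesis enzymes, the Hmox1 value was 0.873 (0.739 to 1.03).

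The enzymes after heme oxygenase were near the water level. The biliverdin reductases Blvra and Blvrb, which make bilirubin, had ratios of 0.968 (0.784 to 1.19) and 0.979 (0.858 to 1.12). With Hmox2, 0 of these 3 had an interval outside 1.

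Red cell markers were set beside Alas2 because it marks red cell precursors. Of 20 markers 17 were measured, 13 lower and 4 higher in the KXH library, with intervals below 1 for 6 and above 1 for 1. That one, Rhag, had 7 reads in the KXH library and none in the water library. The most abundant marker, the beta-globin Hbb, stood at 2234 RPKM in KXH and 3283 RPKM in water. Hbb is named for its abundance, after its values were seen. The Alas2 to Hbb read ratio in KXH was 0.932 times (0.844 to 1.03) that in water, so the interval includes 1.

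LOC100134871, a gene of the red cell list that the tables used here do not annotate, at 206 RPKM in KXH and 318 RPKM in water, gave an Alas2 read ratio of 0.979 (0.874 to 1.10). Slc4a1, the anion exchanger of the red cell membrane, was at 2.60 RPKM in KXH and 4.70 RPKM in water, and gave 1.15 (0.922 to 1.42). The blood group protein Kel had 23 reads in KXH and 48 in water and gave 1.23 (0.727 to 2.14). LOC287167, likewise not annotated here, had 0 reads in KXH and 101 in water. It was at least 31.3-fold lower when KXH is set to the floor of 3 reads, a bound that takes the 101 water reads as exact. The interval used for the other genes puts the fold at 25.03 or more. Reads of near-identical globin genes can be split, so single globin values are uncertain.

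Over the 13 markers with at least 20 reads in sum and reads in both libraries, the Alas2 read ratio had an interval that includes 1 for 11 and below 1 for 2. Those were Sptb and Ank1, a spectrin and an ankyrin of the red cell skeleton, named after their values were seen. Both are also made in striated muscle, and their RPKM ratios were 0.950 (0.917 to 0.984) for Sptb and 1.01 (0.908 to 1.12) for Ank1. Of the markers with few reads, Ahsp and Epor had RPKM ratios of 0.991 (0.545 to 1.80) and 1.00 (0.448 to 2.23). Klf1, Hemgn and Epb42 had ratios of 0.806 (0.384 to 1.66), 0.826 (0.533 to 1.27) and 0.794 (0.494 to 1.26). All were named after their values were seen, and their intervals include both 1 and the Alas2 ratio of 0.634. Gata1, Ermap and Hba-a2 had no row under these names in either table, although Hba-a2 is an alternative name of genes that are listed. The part of red cell content in the Alas2 difference was not tested.

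**Figure D4:**
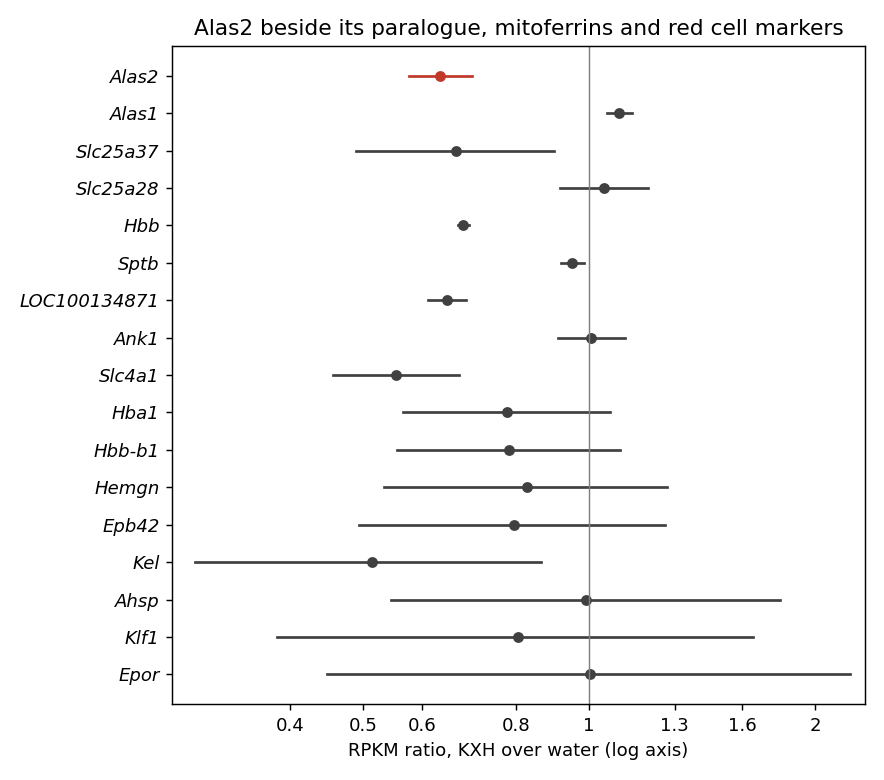
RPKM ratio of KXH over water (log axis) for Alas2 (red), Alas1, the mitoferrins Slc25a37 and Slc25a28, and then 13 red cell markers from most to fewest reads, with 95% exact counting intervals from 1 library per group. Alas2 (0.634) lies beside Hbb (0.680) and LOC100134871 (0.648), whereas Alas1 (1.10) and Slc25a28 (1.05) lie to the right of 1. Of the red cell markers, Sptb (0.950) and Ank1 (1.01) lie near 1, as do Ahsp (0.991) and Epor (1.00) with wide intervals.

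Iron for the last step enters the mitochondrion through mitoferrins, which also come as an erythroid and a general form. The erythroid form Slc25a37 had 73 reads in KXH and 118 in water, at 3.297 RPKM in KXH and 4.96 RPKM in water, a ratio of 0.664 (0.489 to 0.897). The general form Slc25a28, named after its value was seen, was at 20.3 RPKM in KXH and 19.4 RPKM in water, a ratio of 1.05 (0.916 to 1.20). The Slc25a37 to Slc25a28 read ratio in KXH was 0.634 times (0.454 to 0.883) that in water, and the Alas2 to Slc25a37 read ratio had an interval that includes 1, at 0.955 (0.695 to 1.32). Both erythroid forms, Alas2 and Slc25a37, had ratios and intervals below 1. Of their general counterparts, Alas1 had an interval above 1 and that of Slc25a28 included it.

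The transferrin receptor Tfrc, which takes up iron and is abundant on red cell precursors, went the other way. It had 1560 reads in KXH and 1229 in water, at 23.2 RPKM in KXH and 17.0 RPKM in water, a ratio of 1.36 (1.26 to 1.47). Of 13 measured genes of mitochondrial iron supply and iron-sulfur assembly, 6 were higher and 7 lower, with intervals above 1 for 2 and below 1 for 2, and a median log2 ratio of -0.002. Over all genes the interval lay above 1 for 11.2% and below 1 for 16.3%, and the ratio was below 1 for 55%. These shares belong beside the counts of this and the other lists. The ferredoxin reductase Fdxr had a ratio of 0.686 (0.487 to 0.958) from 60 reads in KXH and 94 in water, and its partner Fdx1 one of 0.881 (0.764 to 1.01).

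Among 20 measured transporters and regulators of heme, 8 were higher and 12 lower, with intervals above 1 for 2 and below 1 for 3, and a median log2 ratio of -0.01. Ppargc1a, a coactivator that induces Alas1 in mouse liver, had a ratio of 1.12 (1.05 to 1.19). Bach1, the heme-binding repressor of Hmox1, had one of 0.854 (0.773 to 0.943). The membrane transporter Flvcr2 had one of 0.666 (0.528 to 0.837) from 124 reads in KXH and 200 in water, and the heme-binding protein Pgrmc1 one of 1.10 (0.974 to 1.252). Nrf1, whose motif the Alas1 window holds, was at 10.01 RPKM in KXH and 10.7 RPKM in water, with a ratio of 0.938 (0.792 to 1.11). It is named for that motif and not for its value.

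Genes that share the regulator Nfe2l2 with Hmox1 went both ways. Of 10 such genes 6 were higher and 4 lower, with intervals above 1 for 3 and below 1 for 2, and a median log2 ratio of 0.03. Srxn1, which repairs oxidised peroxiredoxins, had a ratio of 1.23 (1.11 to 1.36) and Gclm, a subunit of the enzyme that starts glutathione synthesis, one of 0.854 (0.742 to 0.982). Osgin1 and Gclc had ratios of 1.10 (0.848 to 1.43) and 0.915 (0.808 to 1.04). Of 8 measured macrophage markers 4 were higher and 4 lower, and their summed level was 207 RPKM in KXH and 223 RPKM in water. Intervals lay below 1 for 2, Cd68 at 0.575 (0.440 to 0.748) and Lyz2 at 0.927 (0.878 to 0.979), and included 1 for the others. Adgre1 and Csf1r were also lower, at 0.859 (0.720 to 1.02) and 0.951 (0.871 to 1.04). Among the 4 higher, Cd163 and Mrc1 were at 1.05 (0.942 to 1.17) and 1.03 (0.935 to 1.12), both named after their values were seen. The part of macrophage content in the Hmox1 value was not tested.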

How the data were processed

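Total RNA of myocardium was sequenced from 1 KXH and 1 water library, grouped by the agent in the labels. Libraries were made with an Illumina TruSeq RNA kit from Trizol extracts, per the labels' protocols. The deposited tables give whole counts of reads, called unique in the column heading, which sum to the total in that heading. The deposited RPKM values equal reads per kilobase per 1000000 reads of each table's own total (checked to a relative difference of 1e-09). The deposited coverage score, written as a percent, was used only to describe the row named Hmox2-ps1. Bowtie 0.12.2 and rn6 are named in the submitters' processing notes, with no role given. The sources used here do not state the counting program, annotation or use of strand, so reads of overlapping antisense transcripts and of near-identical genes may be misassigned. The tables list genes with at least 1 read, and an absent gene was taken as 0 reads. The lncRNA tables entered only a scaling alternative.

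Ratios are KXH over water RPKM, with exact Clopper-Pearson intervals on the KXH share of a gene's reads given both totals. Read ratios between genes were compared by the odds ratio of the 2 by 2 read counts with exact conditional intervals. Intervals on levels are exact Poisson intervals. The floor for 0 reads was 3 reads. PCR reads here carry no molecular identifiers and are not independent molecules. Intervals and floors thus cover counting error only, and animal variation is in none of them. Log2 ratios used 1 RPKM added, which understates changes of low genes. All genes means those averaging 1 RPKM or more, and a ratio of 0.8 or its inverse was the fold used. The enzymes and the 9 further lists were chosen with earlier results of these data known. Of each list up to 4 genes were named, those with the ratio farthest from 1 among genes with at least 50 reads in sum. Of the erythroid, endothelial and heart muscle lists the text gives chosen genes or counts. Symbols were matched to RefSeq tables of GRCr8, used for sequence and names only. Some genes of the lists are not reported here and were left out of their counts. The steps were tested on simulated data. Intervals were computed in scipy 1.17.1 under Python 3.11.15, with numpy 2.4.6 and pandas 2.3.3, and figures drawn in matplotlib 3.10.9.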

Additional observations from a re-analysis of the deposited data

How the results depend on the processing

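No paired analysis was possible because each group has 1 library, and for the same reason no replicate could be left out. Of 86 alternative values, 82 kept their direction and stayed within their counting interval, within 1.5 times of a count, or within the spread of the 9 log2 ratios. Several of these could not have failed. A 99% interval leaves the Alas2 to Alas1 value itself unchanged, and 0 enzymes above the fold stay 0 at a larger fold. The spread of the 9 log2 ratios, from -0.64 to 0.13, is wide for a median. The 82 are therefore no measure of robustness. Centring on the median of all genes, trimmed-mean scaling, totals with lncRNA reads, totals without red cell genes and removal of the length trend left the Alas2 ratio between 0.629 and 0.644 and the Alas1 ratio between 1.09 and 1.11. The 4 scalings among these moved all genes by at most 0.0212 on the log2 scale, and removal of the length trend moved single enzymes by at most 0.0410 (Urod). The Hmox1 to Hmox2 read ratio was 0.935 with reads of Hmox2-ps1 added, and its interval then included 1. With 99% intervals, 1 of the 9 enzymes lay below 1 in place of 2, since the wider interval of Alad included 1. At a fold of 2, 0 enzymes were lower in place of 1. By reads in place of RPKM, Alas2 made up 10.8% of the pair in KXH and 17.3% in water, because Alas1 is the longer gene. The median log2 ratio of the 9 lay between -0.06 and -0.10 under other scalings and pseudocounts, and was -0.14 as a mean and -0.07 without Alas2, the last chosen after seeing the data. Depth limits Ppox and Uros most, with 326 and 393 reads in sum.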

Other observations

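Proteins that hold heme, and the enzymes that modify or attach it, were close to the water level. Of 9 measured genes 4 were higher and 5 lower in the KXH library, with intervals above 1 for 3 and below 1 for 3. Myoglobin, Mb, the oxygen store of heart muscle and named here for its abundance, was at 18238 RPKM in KXH and 17406 RPKM in water, a ratio of 1.05 (1.04 to 1.05). Cox15, which makes heme A for cytochrome oxidase, had a ratio of 1.08 (1.02 to 1.15) and Hccs, which attaches heme to cytochrome c, one of 1.07 (0.991 to 1.15). Catalase, Cat, and cytoglobin, Cygb, had ratios of 0.930 (0.897 to 0.965) and 0.924 (0.858 to 0.995). Mb thus lay above 1, and Hbb, given beside Alas2, below it.

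A gene listed as Hmox2-ps1 had 6474 reads in KXH and 7652 in water. Its level was 208 RPKM in KXH and 229 RPKM in water, 5.38 times that of Hmox2 in KXH and 6.20 times in water. By the authors' deposited coverage, its reads lay on 42.6% of its listed length in KXH and 42.9% in water. It is named after its values were seen.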
